A study of Mus musculus with 8 samples.

Results

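The genes described here are 40 components of bone morphogenetic protein (BMP), transforming growth factor beta (TGF-beta) and activin signalling, chosen by gene symbol from a count table of 27179 Entrez genes. All 40 were found in the table and all 40 passed the filter on low counts. They were measured by sequencing polyadenylated RNA of embryonic mouse cerebral cortex, with 1 library for each of 8 embryos. The wild-type group is 4 Taf8 +/+ embryos and the Taf8-deleted group is 4 Taf8 -/lox embryos, which carry a minus and a lox allele. Taf8 is a subunit of TFIID, the general factor that binds core promoters for RNA polymerase II. The sources used here name neither the day of gestation nor the Cre driver, nor a Cre in the wild-type group, so the cells that lose Taf8 cannot be named. The animal numbers of wild-type replicates 1 to 3 begin alike and no beginning occurs in both genotypes, so any litter or batch that they mark cannot be told apart from genotype.

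Ligands of this family bind pairs of type I and type II receptor kinases, which phosphorylate receptor-regulated Smad proteins. BMPs act mainly through Smad1, Smad5 and Smad9, and TGF-beta and activin act through Smad2 and Smad3. Both kinds of Smad join Smad4 and enter the nucleus to change transcription, while Smad6, Smad7 and the Smurf ubiquitin ligases restrain the response. Noggin, chordin, follistatin and their relatives bind ligands outside the cell. In the embryonic forebrain the dorsal midline, the choroid plexus and the meninges are known sources of BMPs, and neural progenitors respond to BMP with expression of Id genes.

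The deletion group had higher RNA of 10 and lower RNA of 11 of the 40 genes (edgeR's quasi-likelihood test, Benjamini-Hochberg adjusted p under 0.05), and 19 did not pass. Over all 15649 genes tested, 59.2% passed, 29.5% as higher and 29.6% as lower, so the share of the signalling genes, 52.5%, was no higher than that of genes at large. With libraries scaled by size alone the split was 11 higher and 8 lower. Only Inhba, Tgfb3 and Fst, 3 of the 40, both passed and differed by 1.5-fold or more, against 20.2% of all genes. Groups of libraries did not overlap in 16 of the 40, against 53.6% of all genes. The median log2 fold change of the 40 was 0.05, beside 0.01 for all genes tested. Levels are given as CPM, counts brought to a common library total with trimmed-mean factors, every group has n = 4, and errors are SD unless called SE.

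**Figure D1:**
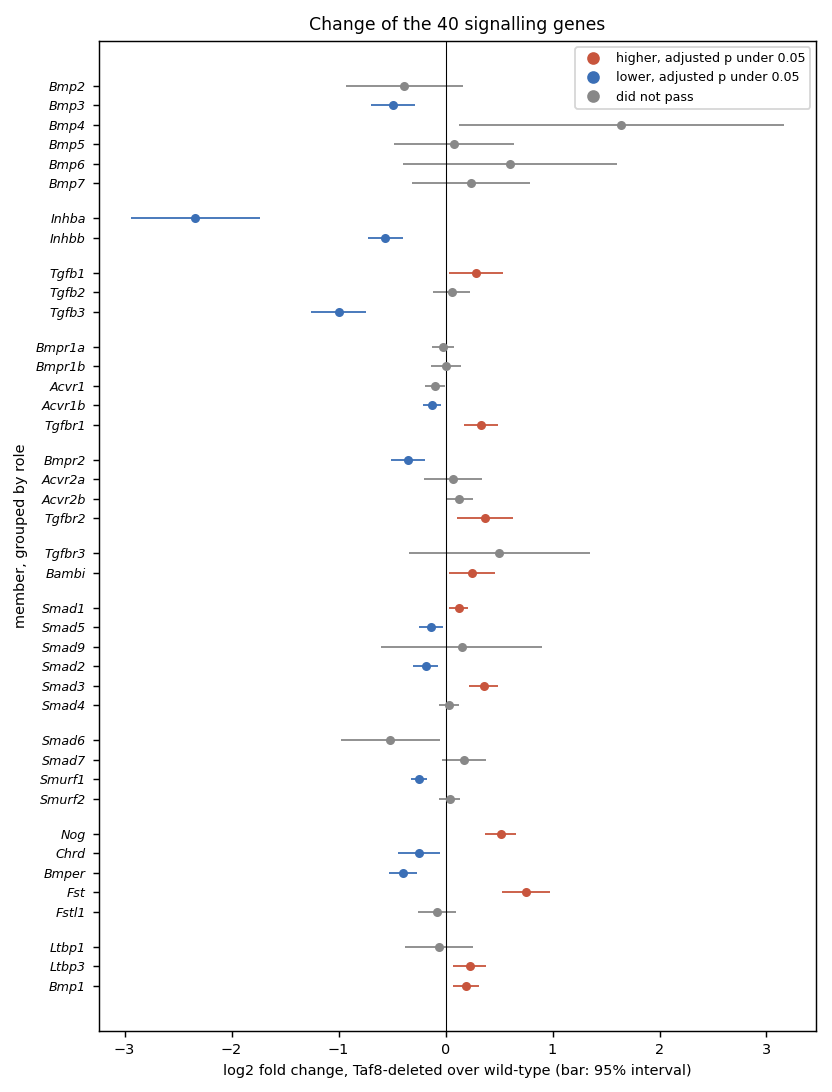
Log2 fold change of each of the 40 genes, Taf8-deleted over wild-type, grouped by role from ligands at the top to latency proteins at the bottom. Points are edgeR estimates, bars are 95% intervals, red and blue mark genes that were higher (10) or lower (11), and grey marks the 19 that did not pass. Inhba, at -2.34, lies farthest from 0 among those that passed, and Bmp4, at 1.64 with an interval of 0.13 to 3.16, is the widest.

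Facts of the libraries that touch these results are as follows. Totals ran from 26312505 to 65523487 counts. Taf8 itself had 38.5, 35, 32 and 33.7 CPM in the wild-type libraries and 0.791, 0.747, 0.486 and 0.547 CPM in the deleted libraries (log2 fold change -5.75, adjusted p = 1.45e-09). Emx1 and Neurod6, which mark the dorsal telencephalon and its neurons, were present in all 8 libraries, Emx1 at 55.1 to 76.3 CPM and Neurod6 at 185 to 684 CPM. So were the ganglionic eminence genes Nkx2-1, at 62.1 to 82.1 CPM, and Dlx2, at 120 to 204 CPM. The levels given here as those of cortex are therefore not of dorsal cells alone. Markers of meningeal fibroblasts were higher in 8 of 13 tested and lower in 0, and their summed level was 54.4, 48.2, 45.9 and 82 CPM in wild-type replicates 1 to 4 and 149.5, 185, 214 and 69.9 CPM in deleted replicates 1 to 4. Markers of choroid plexus and cortical hem passed as higher in 1 of 11 and as lower in 1, but their summed level ranged widely, at 52.1, 68.8, 74.2 and 449.8 CPM in wild-type replicates 1 to 4 and 1246, 137, 245 and 35.6 CPM in deleted replicates 1 to 4. Wild-type replicate 4 and deleted replicates 1 to 3 thus had the highest sums of both lists. Deleted replicate 4 had the lowest choroid plexus and hem sum of all 8 and a meningeal sum inside the wild-type range. Most of the choroid plexus and hem sum was Ttr in wild-type replicate 4 (366 CPM) and deleted replicate 1 (1117 CPM). Other genes of that list had another order. Wnt3a and Wnt2b were highest in deleted replicate 2 (4.87 and 7.79 CPM), and Rspo3 in wild-type replicate 3 (33.6 CPM). The sum therefore does not rank the libraries by hem RNA. All 13 markers of endothelial cells and pericytes were higher, with sums of 241 to 254 CPM in wild-type and 292 to 368 CPM in deleted libraries. Of 10 microglial and macrophage markers, 5 passed as higher and 1 as lower (49.1 to 58 CPM in wild-type and 53.8 to 71.7 CPM in deleted libraries), and 5 of 9 red blood cell markers were higher (259 to 338 CPM in wild-type and 349.8 to 472 CPM in deleted libraries). Cortical neuron markers were lower in 7 of 8 (3716 to 3989 CPM in wild-type and 2729.9 to 3022 CPM in deleted libraries), of 7 ganglionic eminence and interneuron markers 6 were lower and 1 was higher (856 to 995 CPM in wild-type and 654 to 669 CPM in deleted libraries), and of 10 radial glia markers 4 passed as higher and 4 as lower (3115 to 3394 CPM in wild-type and 3755 to 4122 CPM in deleted libraries). Among the defining markers Kcnj13, a choroid plexus gene, was at 0 in wild-type replicate 1 and deleted replicate 4, and no other marker was at 0 in any library. In RNA of whole tissue, fewer cells of a type and less RNA per cell cannot be told apart.

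Both genes for activin subunits fell in Taf8-deleted cortex. Inhba and Inhbb encode the beta A and beta B subunits, whose dimers are activins. Inhba (Entrez gene 16323, chromosome 13, 16004256 to 16031609, mm10) had 0.929, 0.872, 1.52 and 0.998 CPM in wild-type replicates 1 to 4 and 0.158, 0.26, 0.187 and 0.245 CPM in deleted replicates 1 to 4. These levels came from 28, 35, 97 and 38 counts and 6, 8, 5 and 13 counts, so the deleted level is imprecise, but every deleted library lay below every wild-type library. The fall was 5.06-fold (log2 fold change -2.34, SE 0.27, adjusted p = 3.53e-05), more than that of any other of the 40. Inhbb (chromosome 1, 119415463 to 119422248) had 37.8, 42.1, 41.2 and 43.2 CPM in wild-type replicates 1 to 4 and 28, 29.1, 30.7 and 24 CPM in deleted replicates 1 to 4. Here too the groups did not overlap, with a fall of 1.48-fold (log2 fold change -0.56, SE 0.07, adjusted p = 9.5e-05). Per kilobase of transcript, Inhbb was the main subunit RNA in both groups, at 9.66 ± 0.544 CPM per kb in wild-type and 6.57 ± 0.676 in deleted cortex, against 0.706 ± 0.194 and 0.139 ± 0.0314 for Inhba. The share of Inhba in the sum of the pair went from 6.79 ± 1.71% to 2.1 ± 0.589%. The Inhbb call held in all 23 alternative analyses, and the Inhba call in all those that tested it, since a filter of 1 CPM in 4 libraries dropped the gene. The refit of the single-library files, among the 23, used the same counts and could not differ. One alternative added the mean log2 CPM of the tested meningeal markers as a covariate, and another did so for choroid plexus and hem markers. In the fit with the meningeal covariate the log2 fold changes were alike (Inhba -2.14, adjusted p = 0.00074, and Inhbb -0.72, adjusted p = 2.4e-05).

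TFIID contacts core promoters, so the promoter windows of the activin pair and of Tgfb2, a ligand gene that did not pass the test, are shown as reference sequence. Each runs 5′ to 3′ from 250 bases before to 50 bases after a RefSeq transcript start on GRCm38.p6, and capitals mark matches to the motifs searched, on both strands. These were the TATA box TATAAA, the GC-rich Smad sequence GGCGCC, the same with 1 more base as TGGCGCC, the palindromic Smad sequence GTCTAGAC and the Smad box CAGACA.
Inhba, chr13:16011601-16011900, plus strand: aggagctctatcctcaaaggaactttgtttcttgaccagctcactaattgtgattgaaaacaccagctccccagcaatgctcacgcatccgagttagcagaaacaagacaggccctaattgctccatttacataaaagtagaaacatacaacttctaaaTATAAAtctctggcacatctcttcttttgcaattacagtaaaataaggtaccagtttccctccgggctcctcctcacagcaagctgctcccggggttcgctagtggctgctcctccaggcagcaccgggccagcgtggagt
Inhbb, chr1:119422199-119422498, minus strand: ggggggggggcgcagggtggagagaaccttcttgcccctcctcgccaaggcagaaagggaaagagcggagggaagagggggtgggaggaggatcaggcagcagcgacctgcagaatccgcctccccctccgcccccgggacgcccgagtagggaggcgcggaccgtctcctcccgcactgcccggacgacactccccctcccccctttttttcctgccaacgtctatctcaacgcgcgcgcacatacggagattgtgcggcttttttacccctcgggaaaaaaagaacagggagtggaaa
Tgfb2, chr1:186705940-186706239, minus strand: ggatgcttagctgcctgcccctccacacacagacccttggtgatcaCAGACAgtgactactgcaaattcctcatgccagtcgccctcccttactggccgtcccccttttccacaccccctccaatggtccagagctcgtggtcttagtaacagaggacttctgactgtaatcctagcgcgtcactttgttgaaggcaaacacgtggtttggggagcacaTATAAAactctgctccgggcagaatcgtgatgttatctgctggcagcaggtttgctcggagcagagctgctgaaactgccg
The Inhba window holds TATAAA 91 bases before the start, and its G and C bases make up 47.7% of it. The Inhbb window holds none of the motifs, and 64.3% of it is G or C. The Tgfb2 window holds TATAAA 31 bases before the start and CAGACA at 204 bases before it. Windows were listed for 28 of the 40 genes, 34 in all. TATAAA occurs in 3 of the 34 (8.82%), those of Inhba, Tgfb2 and Bmpr1b, against 7.51% of 15090 windows of tested genes. GGCGCC occurs in 9 of the 34 (26.5%), against 20.7%, and its matches include the TGGCGCC matches, 2 of 34 (5.88%) against 6.67%. The 9 windows with GGCGCC belong to 8 genes, since overlapping windows of Smad5 hold the same site. CAGACA occurs in 9 of 34 (26.5%) against 16.3%, and GTCTAGAC in 1, that of Smad6, against 0.245%. The windows listed for Inhba and Tgfb2 lie inside the annotated spans of their genes, so each is one of more than 1 possible start. These are matches of letters only.

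Of the TGF-beta ligand genes, Tgfb3 fell, Tgfb1 was slightly higher and Tgfb2 did not pass. Tgfb3 (Entrez gene 21809, chromosome 12, 86056743 to 86079041) had 12.1, 11, 11 and 13.2 CPM in wild-type replicates 1 to 4 and 7.15, 5.81, 5.83 and 4.91 CPM in deleted replicates 1 to 4. The highest deleted library was below the lowest wild-type library, and the fall was 2-fold (log2 fold change -1, SE 0.12, adjusted p = 3.49e-05). Tgfb2 had 18, 15.7, 17.8 and 17 CPM in wild-type replicates 1 to 4 and 16.4, 19, 19.6 and 16.4 CPM in deleted replicates 1 to 4. Its groups overlapped, and the interval of its log2 fold change was -0.12 to 0.23. Tgfb1, the isoform best known from blood and immune cells, had 3.29, 3.19, 2.78 and 3.44 CPM in wild-type replicates 1 to 4 and 3.9, 4.02, 4.15 and 3.42 CPM in deleted replicates 1 to 4. Deleted replicate 4 lay within the wild-type range, and the difference was small (log2 fold change 0.29, SE 0.11, adjusted p = 0.0485). That call was lost without any 1 library other than deleted replicate 4 (adjusted p = 0.0528 to 0.13), by DESeq2 (adjusted p = 0.0791), and in the fit with the meningeal covariate (0.13, adjusted p = 0.439). Size-factor scaling, no filter, the replicate number as a block and the choroid plexus covariate lost it too (adjusted p = 0.0519 to 0.117). So did leaving out wild-type replicate 4 and deleted replicate 1 together (adjusted p = 0.0787). All 13 endothelial and pericyte markers were higher in the deleted group, while microglial markers went both ways, as given above, and their part in the Tgfb1 value was not tested.

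The makeup of TGF-beta ligand RNA did not overlap between the groups of libraries for any of the 3 ligands. Summed per kilobase, the 3 ligand genes came to 8.63 ± 0.492 CPM per kb in wild-type and 7.38 ± 0.576 CPM per kb in deleted cortex. The share of Tgfb3 in that sum went from 40.4 ± 1.59% to 23.7 ± 3.09%, that of Tgfb2 from 42 ± 2.47% to 51.2 ± 3.05% and that of Tgfb1 from 17.6 ± 1.21% to 25.1 ± 0.15%. Shares of 1 sum are tied to each other, so a fall of Tgfb3 by itself raises the shares of Tgfb1 and Tgfb2, and the level of Tgfb2 did not pass.

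**Figure D2:**
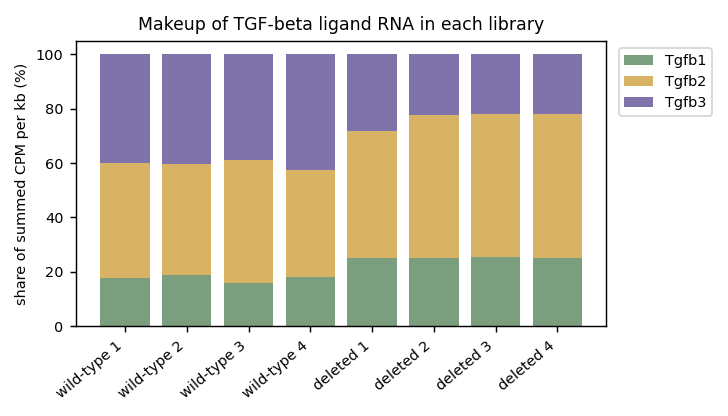
Share of Tgfb1, Tgfb2 and Tgfb3 in their summed level per kilobase (vertical axis, percent) for each of the 8 libraries (horizontal axis). Tgfb3 makes up 38.9 to 42.6% in wild-type libraries and 22 to 28.3% in deleted libraries.

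Only Bmp3 passed among the 6 BMP ligand genes. Bmp3 (chromosome 5, 98854415 to 98884053), which encodes a BMP that opposes the action of other BMPs, had 5.28, 4.66, 4.88 and 4.89 CPM in wild-type replicates 1 to 4 and 3.59, 3.25, 3.74 and 3.43 CPM in deleted replicates 1 to 4. The groups did not overlap (log2 fold change -0.49, SE 0.09, adjusted p = 0.00104), and the value with the meningeal covariate was alike (-0.50, adjusted p = 0.00846). Bmp7 (chromosome 2, 172868012 to 172940321), the BMP ligand RNA with the highest level per kilobase (2.88 ± 0.692 CPM per kb in wild-type cortex), did not pass (log2 fold change 0.24, adjusted p = 0.429). Bmp2, at 0.472 to 1.17 CPM over the 8 libraries, and Bmp5, at 0.664 to 1.27 CPM, did not pass either, with log2 fold changes of -0.39 (95% interval -0.93 to 0.16) and 0.08 (-0.48 to 0.64).

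Several genes that did not pass differed widely among the deleted embryos, and they are described here because of values already seen. Bmp4 had 0.232, 0.125, 0.219 and 0.683 CPM in wild-type replicates 1 to 4 and 1.5, 1.14, 1.27 and 0.113 CPM in deleted replicates 1 to 4. Deleted replicates 1 to 3 were all above the wild-type range, while deleted replicate 4 was below it (log2 fold change 1.64, SE 0.68, adjusted p = 0.0599). Without deleted replicate 4 the gene passed at a log2 fold change of 2.06 (adjusted p = 0.0025), without wild-type replicate 4 at 2.30 (adjusted p = 0.0236), and by DESeq2 over all libraries at 1.67 (adjusted p = 0.0251). With the choroid plexus and hem level as a covariate it passed at 0.85 (adjusted p = 0.0419). With the meningeal covariate its sign turned (-0.21, adjusted p = 0.792). Bmp6 was likewise above the wild-type range in deleted replicates 1 to 3 and below it in deleted replicate 4, at 1.16, 1.37, 1.39 and 1.81 CPM in wild-type replicates 1 to 4 and 2.24, 3.05, 3.22 and 0.472 CPM in deleted replicates 1 to 4. It passed as higher without deleted replicate 4 (log2 fold change 0.96, adjusted p = 0.00217) and as lower with the meningeal covariate (-0.90, adjusted p = 0.0294). Bmp7 had 5.34, 6.01, 4.04 and 7.3 CPM in wild-type replicates 1 to 4 and 8.12, 7.4, 7.63 and 3.7 CPM in deleted replicates 1 to 4, again lowest in deleted replicate 4. Tgfbr3, a co-receptor that presents ligand, had 1.36, 1.22, 1.44 and 1.76 CPM in wild-type replicates 1 to 4 and 3.9, 1.33, 2.09 and 0.925 CPM in deleted replicates 1 to 4, highest in deleted replicate 1, the library with the highest choroid plexus sum. Ltbp1, which anchors latent TGF-beta in the matrix, was at 42.5, 43.8, 44.6 and 41.5 CPM in wild-type replicates 1 to 4 and at 48.6, 42.3, 47.4 and 27.9 CPM in deleted replicates 1 to 4, so deleted replicate 4 alone stood below the rest. The BMP-branch gene Smad9 was scarce throughout, at 0.398, 0.623, 0.83 and 0.473 CPM in wild-type replicates 1 to 4 and 0.791, 0.747, 0.897 and 0.321 CPM in deleted replicates 1 to 4. The meningeal and choroid plexus sums were likewise higher in deleted replicates 1 to 3 than in deleted replicate 4, and beyond the covariate fits their part in these values was not tested.

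**Figure D3:**
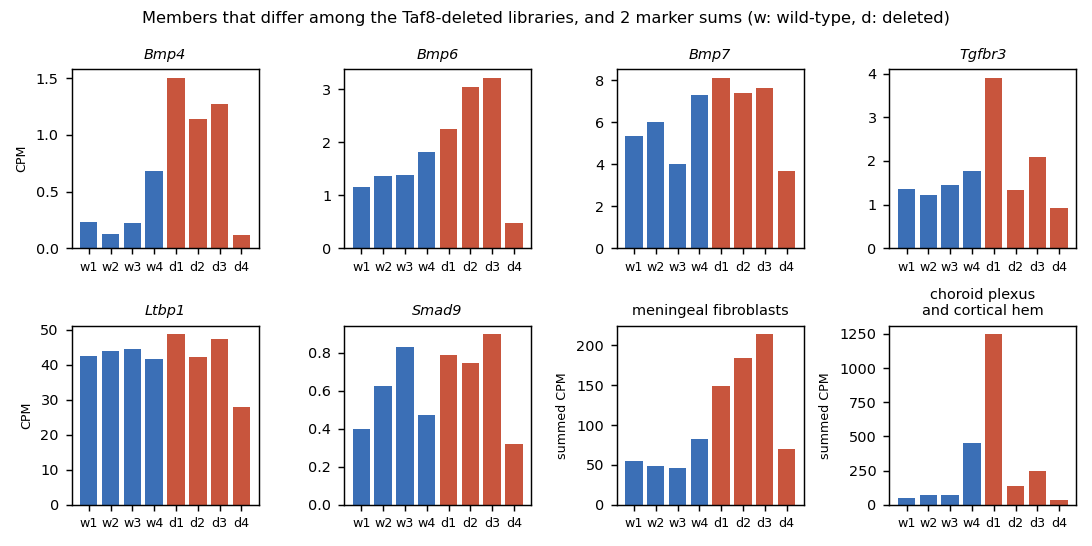
Level of 6 signalling genes in CPM, and summed CPM of the meningeal fibroblast and the choroid plexus and hem markers, in each library (w1 to w4 wild-type in blue, d1 to d4 deleted in red). Deleted replicate 4 has the lowest bar of all 8 libraries in every one of the 6 genes, at 0.113 CPM for Bmp4 and 0.472 CPM for Bmp6.

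Differences among receptor genes were small. Of 9 kinase receptor genes, Tgfbr1 and Tgfbr2 were higher, Acvr1b and Bmpr2 were lower and 5 did not pass. Tgfbr1 (chromosome 4, 47353222 to 47414926), the type I receptor of TGF-beta, had 134, 149, 166 and 138 CPM in wild-type replicates 1 to 4 and 191, 172, 180.1 and 197 CPM in deleted replicates 1 to 4. The groups did not overlap (log2 fold change 0.33, SE 0.07, adjusted p = 0.00226), and with the meningeal covariate the value was no smaller (0.44, adjusted p = 0.00119). Bmpr2 (chromosome 1, 59764279 to 59878081), the type II receptor of BMPs, had 83.2, 79.5, 90.1 and 75.1 CPM in wild-type replicates 1 to 4 and 71.4, 60.2, 59.7 and 65.7 CPM in deleted replicates 1 to 4, also without overlap (log2 fold change -0.35, SE 0.07, adjusted p = 0.00152; with the covariate -0.25, adjusted p = 0.0316). Acvr1b, a type I receptor of activin, had 127, 127, 130.3 and 127 CPM in wild-type replicates 1 to 4 and 113, 118, 113 and 123 CPM in deleted replicates 1 to 4. The difference was narrow but without overlap (log2 fold change -0.13, SE 0.04, adjusted p = 0.0134). Its call was lost with scaling by library size alone (adjusted p = 0.063) and with the meningeal covariate (-0.08, adjusted p = 0.166). It was also lost without wild-type replicate 4 and deleted replicate 1 together (-0.12, adjusted p = 0.0679). Tgfbr2, which binds TGF-beta first and is abundant in vascular cells, had 8.23, 7.48, 8.73 and 9.09 CPM in wild-type replicates 1 to 4 and 10.3, 12, 12.6 and 8.72 CPM in deleted replicates 1 to 4. Deleted replicate 4 was inside the wild-type range (log2 fold change 0.37, SE 0.12, adjusted p = 0.0197), and the call was lost without wild-type replicate 2 or deleted replicate 2 or 3 (adjusted p = 0.0696 to 0.0722) and with the meningeal covariate (0.12, adjusted p = 0.376).

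For the 5 receptor genes that did not pass, the 95% intervals of the log2 fold change lay between -0.20 and 0.34. Bmpr1a, the main type I BMP receptor RNA, was at 131 ± 6.2 CPM in wild-type and 129 ± 5.67 CPM in deleted cortex, with an interval of -0.13 to 0.08 for the log2 fold change. The intervals were -0.14 to 0.15 for Bmpr1b, -0.19 to -0.01 for Acvr1, -0.20 to 0.34 for Acvr2a and 0.01 to 0.25 for Acvr2b. Acvr1 passed as lower with size-factor scaling and without wild-type replicate 2 or deleted replicate 3 (adjusted p = 0.0322 to 0.0457). Acvr2b passed as higher in 4 alternatives, 1 of them without wild-type replicate 1 (adjusted p = 0.026), and Acvr2a without wild-type replicate 3 (0.21, adjusted p = 0.0462). Summed per kilobase, type I receptor RNA came to 104 ± 4.15 CPM per kb in wild-type and 106 ± 3.69 CPM per kb in deleted cortex and type II receptor RNA to 66.3 ± 4.91 CPM per kb in wild-type and 64.6 ± 3.8 CPM per kb in deleted cortex. Bambi, a pseudoreceptor without a kinase domain that blocks signalling, had 4.61, 4.01, 4.63 and 4.2 CPM in wild-type replicates 1 to 4 and 4.9, 5.65, 5.35 and 4.87 CPM in deleted replicates 1 to 4. Its groups did not overlap, yet the difference was small (log2 fold change 0.25, SE 0.10, adjusted p = 0.0466), and the call was lost in 15 alternatives beside the stricter threshold and fold, among them the fits without any 1 library other than wild-type replicate 3 (adjusted p = 0.061 to 0.152).

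Among the Smads that carry the signal, Smad3 and Smad1 were higher, Smad2 and Smad5 were lower, and Smad4 and Smad9 did not pass. Smad3 (chromosome 9, 63646766 to 63757994) had 47.9, 49, 40.7 and 43.9 CPM in wild-type replicates 1 to 4 and 55.9, 61.4, 56.4 and 58.4 CPM in deleted replicates 1 to 4. Every deleted library was above every wild-type library, and the group means differed 1.28-fold (log2 fold change 0.36, SE 0.06, adjusted p = 0.000568), and the value with the meningeal covariate was 0.35, adjusted p = 0.00585. Smad2, which shares the TGF-beta and activin branch with Smad3, had 142, 129, 140.0 and 122 CPM in wild-type replicates 1 to 4 and 116, 115, 115 and 123 CPM in deleted replicates 1 to 4. Deleted replicate 4 lay within the wild-type range (log2 fold change -0.19, SE 0.05, adjusted p = 0.0113), and the call was lost with the meningeal covariate (-0.11, adjusted p = 0.171). The difference between the changes of Smad2 and Smad3 was not tested. Smad1 had 70.9, 75, 75.8 and 74.5 CPM in wild-type replicates 1 to 4 and 79.2, 80.5, 78.2 and 84.8 CPM in deleted replicates 1 to 4, a narrow difference without overlap (log2 fold change 0.12, SE 0.04, adjusted p = 0.0215). Smad5 had 248, 265, 271 and 241 CPM in wild-type replicates 1 to 4 and 244, 217, 236 and 237 CPM in deleted replicates 1 to 4, with overlap (log2 fold change -0.14, SE 0.05, adjusted p = 0.0416). The Smad1 call was lost in turn without wild-type replicate 1, 2 or 4 or deleted replicate 1, 2 or 4 (adjusted p = 0.0589 to 0.136). The Smad1 call was also lost without wild-type replicate 4 and deleted replicate 1 together (adjusted p = 0.0583). That of Smad5 was lost without wild-type replicate 2 or 3 or deleted replicate 2 or 3 (adjusted p = 0.0561 to 0.0838) and with 2 other scalings (adjusted p = 0.0827 and 0.11). It was also lost with the meningeal covariate (-0.08, adjusted p = 0.328) and the choroid plexus covariate (-0.13, adjusted p = 0.0724). With the replicate number as a block neither Smad1 (adjusted p = 0.0551) nor Smad5 (adjusted p = 0.0957) passed. Smad4, the partner of all of them, was at 170.0 ± 5.89 CPM in wild-type and 174 ± 5.64 CPM in deleted cortex, and its interval of -0.06 to 0.12 was among the narrowest of the 40 genes. The summed level of these 6 Smads per kilobase was 135 ± 4.45 CPM per kb in wild-type and 135 ± 3.42 CPM per kb in deleted cortex.

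Of the genes that restrain the Smads, only Smurf1 passed. Smurf1 (chromosome 5, 144876495 to 144965899), a ubiquitin ligase for BMP-branch Smads, had 112, 106, 109 and 106 CPM in wild-type replicates 1 to 4 and 91.2, 90.0, 91 and 92.1 CPM in deleted replicates 1 to 4. The spread within each group was small beside the difference (log2 fold change -0.25, SE 0.03, adjusted p = 0.000111). Its relative Smurf2 was at 115 ± 5.75 CPM in wild-type and 119 ± 3.43 CPM in deleted cortex (interval -0.06 to 0.14). The inhibitory Smad genes are themselves induced by signalling. Smad7 had 12.2, 14.6, 10.9 and 13.5 CPM in wild-type replicates 1 to 4 and 15.5, 14.7, 14.3 and 13.2 CPM in deleted replicates 1 to 4, with overlap (log2 fold change 0.17, adjusted p = 0.136). Smad6 had 6.07, 4.81, 4.61 and 7.91 CPM in wild-type replicates 1 to 4 and 5.09, 4.32, 4.11 and 2.87 CPM in deleted replicates 1 to 4, with the highest value in wild-type replicate 4 and the lowest in deleted replicate 4. It missed the threshold (log2 fold change -0.52, SE 0.21, adjusted p = 0.0532) and passed as lower in 9 alternatives. These were size factors, no filter, DESeq2, voom with quality weights, both marker covariates, and the fits without wild-type replicate 2 or 3 or deleted replicate 1 (log2 fold change -0.91 to -0.52, adjusted p = 0.00141 to 0.0492).

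The secreted antagonists went both ways. Fst and Nog rose, Bmper and Chrd fell, and Fstl1 did not pass. Fst (Entrez gene 14313, chromosome 13, 114452262 to 114458989), whose product follistatin binds activin, had 6.9, 7.1, 7.79 and 7.12 CPM in wild-type replicates 1 to 4 and 11.4, 10.4, 12.6 and 14.2 CPM in deleted replicates 1 to 4. The groups did not overlap, and the rise was 1.68-fold (log2 fold change 0.75, SE 0.10, adjusted p = 9.7e-05). Nog (chromosome 11, 89300638 to 89302559), which encodes the BMP antagonist noggin, had 16, 16.2, 14 and 15.3 CPM in wild-type replicates 1 to 4 and 22.1, 23.3, 21.2 and 21 CPM in deleted replicates 1 to 4. All deleted libraries were above all wild-type libraries, with a 1.43-fold rise of the mean (log2 fold change 0.51, SE 0.06, adjusted p = 6.07e-05). Bmper (chromosome 9, 23223076 to 23485215), a secreted BMP-binding protein, had 27.2, 27.1, 25.2 and 27.5 CPM in wild-type replicates 1 to 4 and 20.4, 18.4, 20.6 and 21.6 CPM in deleted replicates 1 to 4, without overlap (log2 fold change -0.40, SE 0.06, adjusted p = 0.0002). With the meningeal covariate the values were 0.90, adjusted p = 9.74e-05 for Fst, 0.46, adjusted p = 0.00118 for Nog and -0.36, adjusted p = 0.00374 for Bmper. Chrd, which encodes the BMP antagonist chordin, had 13.8, 10.8, 12.2 and 11 CPM in wild-type replicates 1 to 4 and 9.63, 10.5, 9.76 and 10.3 CPM in deleted replicates 1 to 4. The groups were separate by a small margin (log2 fold change -0.25, SE 0.09, adjusted p = 0.0308). The call was lost without wild-type replicate 1 or 3 or deleted replicate 1 or 3 (adjusted p = 0.0547 to 0.0745). It was lost with library size alone (adjusted p = 0.0627) and with the meningeal covariate (-0.20, adjusted p = 0.174). Voom with quality weights, the replicate number as a block and the choroid plexus covariate lost it too (adjusted p = 0.0566 to 0.0749). Without wild-type replicate 4 and deleted replicate 1 together Chrd did not pass either (adjusted p = 0.0616). Fstl1 ranged from 70.1 CPM in deleted replicate 4 to 93.5 CPM in wild-type replicate 4 (log2 fold change -0.08, adjusted p = 0.417), and it passed as lower with the meningeal covariate (-0.26, adjusted p = 0.00579). The sum of the 5 genes per kilobase was 45.8 ± 2.41 CPM per kb in wild-type and 47.7 ± 1.77 CPM per kb in deleted cortex. In that sum the share of Nog went from 17.5 ± 0.569% to 23.9 ± 0.844%, that of Fst from 6.78 ± 0.736% to 10.9 ± 1.87% and that of Bmper from 15.4 ± 0.26% to 11.2 ± 1.1%.

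**Figure D4:**
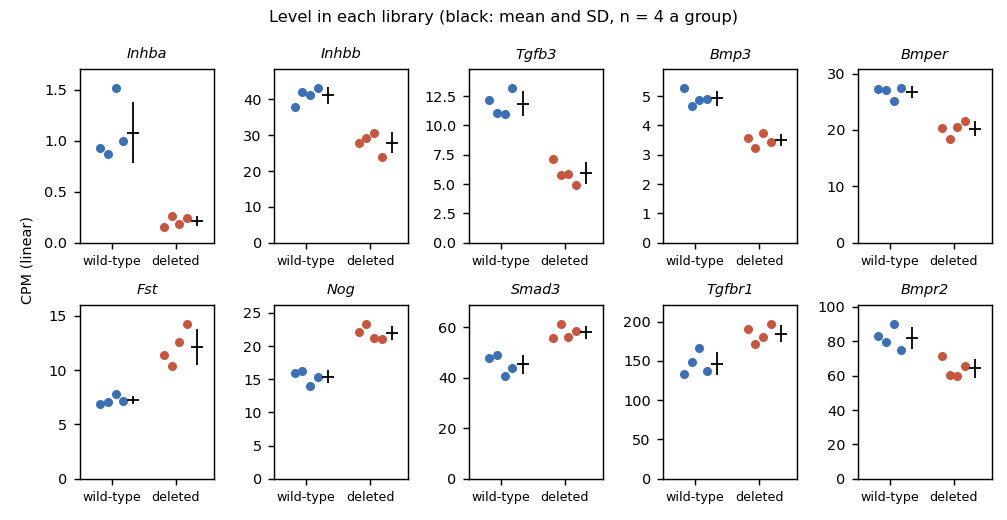
CPM (linear axis from 0) of 10 signalling genes in each wild-type (blue) and deleted (red) library, with mean and SD in black, n = 4 a group. The 10 shown all come from the 16 of the 40 genes whose groups do not overlap, against 53.6% of all genes tested. Inhba, Inhbb, Tgfb3, Bmp3, Bmper and Bmpr2 are lower in the deleted group, and Fst, Nog, Smad3 and Tgfbr1 are higher.

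Of 3 genes of ligand processing and storage, Bmp1 and Ltbp3 were slightly higher and Ltbp1 did not pass. Bmp1 (chromosome 14, 70474555 to 70520716) encodes a metalloprotease that cleaves chordin and procollagen, not a BMP ligand. It had 82.1, 78.2, 69.8 and 70.1 CPM in wild-type replicates 1 to 4 and 83.4, 89, 85.5 and 84.7 CPM in deleted replicates 1 to 4, without overlap (log2 fold change 0.19, SE 0.06, adjusted p = 0.0129). The call was lost without wild-type replicate 4 (adjusted p = 0.0532) or deleted replicate 2 (adjusted p = 0.0506) and with the meningeal covariate (0.19, adjusted p = 0.0679). Without wild-type replicate 4 and deleted replicate 1 together it was lost too (0.17, adjusted p = 0.0522). Ltbp3, a latent TGF-beta binding protein, had 64.6, 59.2, 52.5 and 58.6 CPM in wild-type replicates 1 to 4 and 72.3, 70.1, 71 and 61.4 CPM in deleted replicates 1 to 4, with deleted replicate 4 inside the wild-type range (log2 fold change 0.23, SE 0.07, adjusted p = 0.016). Its call was lost without deleted replicate 1 (adjusted p = 0.0505) and with the meningeal covariate (0.12, adjusted p = 0.231). Ltbp1, described above, did not pass (log2 fold change -0.06, adjusted p = 0.734), and with the covariate it passed as lower (-0.38, adjusted p = 0.047).

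The 21 genes that passed fell into 2 sets by how their calls held. In 11 of them, Bmp3, Inhba, Inhbb, Tgfb3, Tgfbr1, Bmpr2, Smad3, Smurf1, Nog, Bmper and Fst, the call held in every alternative that tested the gene, other than a stricter threshold or fold. In the other 10 it was lost in at least 1, and no gene that passed turned its sign in any. In the fit with the meningeal covariate 12 of the 21 still passed in the same direction. The covariate was 0.41, 0.41, 0.09 and 1.18 in wild-type replicates 1 to 4. In deleted replicates 1 to 4 it was 1.8, 2.45, 2.58 and 0.2, so it is partly tied to genotype. A call could be lost there with the value nearly unchanged, as for Bmp1 at 0.19 in both fits. Such a loss therefore does not measure the part of meningeal cells.

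The rest of the pathway was followed in 86 further genes, of which 64 passed the filter. Of these 16 were higher and 19 were lower, a share of 54.7% that is again no higher than the 59.2% of all genes. The known transcriptional targets were mixed, with 5 of 11 higher and 2 lower and a median log2 fold change of 0.51. Id1, an inhibitor of basic helix-loop-helix factors and an immediate BMP target, had 7.7, 14.5, 9.27 and 13 CPM in wild-type replicates 1 to 4 and 25.5, 22.1, 23.9 and 20.1 CPM in deleted replicates 1 to 4 (log2 fold change 1.04, SE 0.17, adjusted p = 0.000421). Id3 had 15.9, 22.4, 18.2 and 21.3 CPM in wild-type replicates 1 to 4 and 36.8, 35.6, 38.3 and 27.8 CPM in deleted replicates 1 to 4 (log2 fold change 0.83, SE 0.12, adjusted p = 0.000187). Neither overlapped between groups, and neither call was lost in any alternative. Id4 also rose, from 268 ± 23.3 to 381 ± 33.7 CPM, and the TGF-beta-induced matrix gene Tgfbi rose from 2.74 ± 0.502 to 4.69 ± 0.662 CPM, both named after their values were seen. Id2, by contrast, fell slightly, from 133 ± 14.6 to 113 ± 9.42 CPM (log2 fold change -0.25, SE 0.08, adjusted p = 0.0235). That call was lost without deleted replicate 2 (adjusted p = 0.0571) and with the meningeal covariate (-0.14, adjusted p = 0.266). Without wild-type replicate 4 and deleted replicate 1 together the Id2 value was -0.26 and did not pass (adjusted p = 0.0653). Msx1, a homeobox gene of the dorsal midline, had 1.33, 1.42, 2.03 and 5.02 CPM in wild-type replicates 1 to 4 and 13.5, 11.3, 7.44 and 1.96 CPM in deleted replicates 1 to 4. Its rise (log2 fold change 1.79, SE 0.56, adjusted p = 0.0186) was seen in deleted replicates 1 to 3 only. The Msx1 call was lost without wild-type replicate 2 or deleted replicate 1 or 2 (adjusted p = 0.0501 to 0.06) and with the meningeal covariate (0.43, adjusted p = 0.503). It was also lost by limma voom (adjusted p = 0.0918) and with the replicate number as a block (adjusted p = 0.0791). Pmepa1, a TGF-beta target that dampens the pathway, fell from 50.9 ± 2.02 to 43.5 ± 1.48 CPM (log2 fold change -0.23, SE 0.04, adjusted p = 0.00123). Id1 and Id3 are also expressed in endothelial cells, whose markers were all higher, and their part in these 2 values was not tested.

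**Figure D5:**
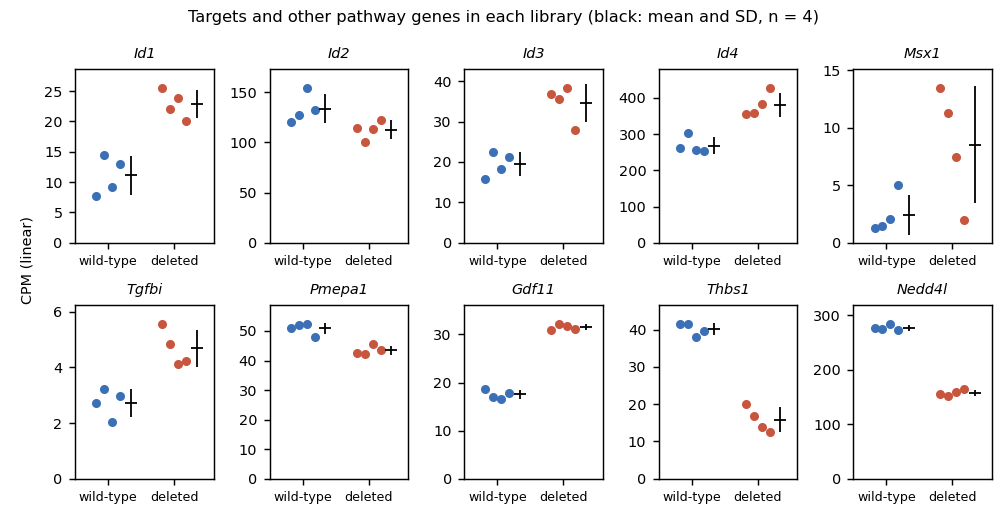
CPM (linear axis from 0) of 10 pathway genes outside the 40 in each wild-type (blue) and deleted (red) library, with mean and SD in black, n = 4. Id1, Id3, Id4, Tgfbi and Gdf11 are higher and Pmepa1, Thbs1 and Nedd4l lower without overlap, while Id2 and Msx1 overlap. Groups did not overlap in 24 of the 64 tested genes outside the 40, against 53.6% of all genes tested.

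Among 8 tested ligand genes outside the 40, 2 were higher and 2 lower. Gdf11, an activin-like ligand that limits neurogenesis in several tissues, rose 1.79-fold, from 17.6 ± 0.908 to 31.5 ± 0.613 CPM (log2 fold change 0.84, SE 0.05, adjusted p = 4.3e-07), with all deleted libraries above all wild-type libraries. Gdf5 was higher (log2 fold change 0.91, adjusted p = 0.0349). That call was lost without wild-type replicate 1, 2 or 3 or deleted replicate 1 (adjusted p = 0.0738 to 0.121), with a log2 fold change of 0.50 without deleted replicate 1, and with the meningeal covariate (0.56, adjusted p = 0.269). Gdf10 fell from 5.13 ± 1.08 to 2.93 ± 1 CPM (log2 fold change -0.81, adjusted p = 0.0102) and Gdf9 from 2.02 ± 0.386 to 1.26 ± 0.157 CPM (log2 fold change -0.68, adjusted p = 0.00695). With 2 fewer libraries, wild-type replicate 4 and deleted replicate 1, neither passed, at -0.68 for Gdf10 (adjusted p = 0.0643) and -0.51 for Gdf9 (adjusted p = 0.0511). Of 7 further receptor and co-receptor genes, Acvrl1, an endothelial type I receptor, was higher (log2 fold change 0.57, adjusted p = 0.00523), Amhr2 was higher at under 1 CPM (log2 fold change 0.76, adjusted p = 0.0166), and Neo1, which binds repulsive guidance molecules, was lower (log2 fold change -0.19, adjusted p = 0.0214). None of these 3 passed with the meningeal covariate, at 0.23, adjusted p = 0.0909 for Acvrl1, 0.70, adjusted p = 0.0911 for Amhr2 and -0.12, adjusted p = 0.236 for Neo1. The Amhr2 value moved little there, and without deleted replicate 3 it was 0.65 (adjusted p = 0.0517).

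Of 13 further antagonist genes, 2 were higher and 5 lower. Dand5, of the family of Cerberus and DAN, rose 1.76-fold, from 5.47 ± 0.68 to 9.69 ± 1.07 CPM (log2 fold change 0.82, SE 0.11, adjusted p = 0.000122), and Vwc2 was higher at 0.44 (adjusted p = 0.0108). Nbl1, which encodes DAN, fell from 10.8 ± 1.77 to 6.65 ± 1.78 CPM (log2 fold change -0.71, SE 0.19, adjusted p = 0.00723), Vwc2l fell by 0.91 on the log2 scale (adjusted p = 0.00101), and Cer1 fell from 0.53 ± 0.0402 to 0.219 ± 0.104 CPM, close to the counting floor (log2 fold change -1.37, adjusted p = 0.00411). Of 12 genes of latency and processing, 2 were higher and 4 lower. Thbs1, encoding thrombospondin 1, which can activate latent TGF-beta, fell 2.53-fold, from 40.1 ± 1.68 to 15.9 ± 3.33 CPM (log2 fold change -1.34, SE 0.12, adjusted p = 6.35e-06). Tll2, a protease of the family of Bmp1, fell 3.16-fold, from 3.74 ± 0.421 to 1.18 ± 0.0745 CPM (log2 fold change -1.66, SE 0.13, adjusted p = 2.53e-06), and Fbn2, encoding fibrillin 2, fell by 0.36 on the log2 scale (adjusted p = 0.00068). Lrrc32 was higher (log2 fold change 0.61, adjusted p = 0.0109) but not with the meningeal covariate (0.27, adjusted p = 0.215). Itgb8 was higher by little (log2 fold change 0.13, adjusted p = 0.0407) and lost its call without any 1 library other than wild-type replicate 2 (adjusted p = 0.0623 to 0.149).

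Of 13 Smad partners and regulators, 3 were higher and 5 lower. Nedd4l, a ubiquitin ligase that acts on activated Smad2 and Smad3, fell 1.75-fold, from 276 ± 5.22 to 158 ± 5.21 CPM (log2 fold change -0.81, SE 0.04, adjusted p = 1e-07). Tob1, which binds Smads and deadenylases, rose from 46.3 ± 2.83 to 68.3 ± 4.5 CPM (log2 fold change 0.56, SE 0.06, adjusted p = 1.86e-05), and Ski, a corepressor of Smad complexes, rose from 184 ± 3.67 to 215 ± 6 CPM (log2 fold change 0.23, adjusted p = 0.000412). The related corepressor gene Skil was lower (log2 fold change -0.20, adjusted p = 0.0208; with the meningeal covariate -0.14, adjusted p = 0.18), as was Zfp423, a Smad partner in BMP responses (log2 fold change -0.27, adjusted p = 0.0133), which had nearly the same log2 fold change, -0.26, without wild-type replicate 4 and deleted replicate 1 together but did not pass there (adjusted p = 0.0628). Tgif2 was higher by little (log2 fold change 0.14, adjusted p = 0.0439), and the call was lost without wild-type replicate 2, 3 or 4 or deleted replicate 2, 3 or 4 (adjusted p = 0.07 to 0.153), with a log2 fold change of 0.09 without wild-type replicate 3.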

How the data were processed

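The deposited files hold whole-number counts per Entrez gene. The authors counted paired reads of a stranded poly(A) library with featureCounts (Subread 1.5.0) on mm10, per the submitters' processing notes. The sources used here do not give the gene annotation, the strand setting or the treatment of reads with several matches. Overlapping and antisense genes may therefore share or lose counts. Values of the matrix and of the single-library files differed in 0 places. Symbols came from RefSeq for 25275 of 27179 genes.

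Genotypes came from the labels, with 4 embryos a group. Counts were tested with edgeR 4.0.16 in R 4.3.3 (filterByExpr, trimmed-mean scaling, quasi-likelihood F-test), adjusted by Benjamini-Hochberg over 15649 genes with a threshold of 0.05. CPM uses the scaled library sizes, and CPM per kb divides by the deposited gene length. Intervals are 95% intervals of the fitted log2 fold change. The scripts were tested on simulated counts. There were 23 alternative analyses, among them DESeq2 1.42.0 and limma 3.58.1. They include a refit of the single-library files, which equals the main fit because the counts are the same. The alternatives named beside a lost call are not always all of them. The members, lists and markers were chosen with earlier results of these data known. Values in every library are given for Taf8, for genes that passed with at least 1.5-fold change, for the smallest adjusted p of each role, and for genes whose call an alternative ended; outside the 40, up to 3 genes in each direction are named per list. Other genes given by library were chosen after their values were seen. Labels give separate embryos, so the spread is between animals. Promoter windows are RefSeq sequence of GRCm38.p6.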

Additional observations from a re-analysis of the deposited data

Results flagged for a closer look

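In 186 groups of 4 libraries, 1 library was checked for its gap to the nearest other, as a share of the whole range of the group. The gap share was above Dixon's 95% critical value in 11 groups, and chance alone gives about 1 in 20. Among the 40 genes it was 0.837 for Bmp7 in deleted replicate 4 (3.70 CPM, others 7.40 to 8.12), 0.9 for Acvr1b in wild-type replicate 3 (130.3 CPM, others 126.7 to 127.1) and 0.837 for Bmper in wild-type replicate 3 (25.2 CPM, others 27.1 to 27.5).

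Among other pathway genes it was 0.87 for Acvrl1 in deleted replicate 4 (5.55 CPM, others 8.15 to 8.54), 0.83 for Gdf5 in deleted replicate 1 (4.80 CPM, others 1.81 to 2.32) and 0.849 for Gdf5 in wild-type replicate 4 (2.29 CPM, others 1.16 to 1.33). It was 0.867 for Itgb8 in deleted replicate 1 (34.4 CPM, others 31.6 to 32.0) and 0.875 for Ski in wild-type replicate 4 (178 CPM, others 185 to 186).

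Among markers it was 0.945 for the summed choroid plexus and hem level in wild-type replicate 4 (449.8 CPM, others 52.1 to 74.2). It was 0.838 for the haemoglobin gene Hba-a1 in deleted replicate 4 (53.0 CPM, others 72.5 to 76.2) and 0.907 for the synapsin gene Syn1 in deleted replicate 4 (63.1 CPM, others 60.1 to 60.4).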

How the results depend on the processing

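The 10 higher and 11 lower members became 4 and 7 at an adjusted p under 0.01, and 2 and 5 when tested against a 1.2-fold change, where the genes called over the whole table were 4635 in place of 9257. Higher members were 5 with the meningeal covariate and 5 without both wild-type replicate 4 and deleted replicate 1. Leaving out 1 library gave 5 to 10 higher and 10 to 12 lower members. The 16 higher and 19 lower other pathway genes became 9 and 11 at 0.01, 10 and 9 against 1.2-fold, and 10 higher with the meningeal covariate. No scaling, filter or other tool moved these counts by over 1.5 times.

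Signs turned only in members that had not passed. With the meningeal covariate the log2 fold changes were -0.21 for Bmp4, -0.39 for Bmp5, -0.90 for Bmp6, -0.38 for Bmp7, -0.041 for Tgfb2, 0.034 for Bmpr1a, -0.0067 for Tgfbr3 and -0.36 for Smad9. With the choroid plexus covariate they were -0.069 for Bmp5 and -0.073 for Smad9. Bmpr1a was 0.0075 with upper-quartile scaling and 0.020 with library size alone, and Bmpr1b was -0.0095 with quality weights. Without both libraries Bmpr1b was -0.027, Acvr2a -0.010 and Smad9 -0.071. Leaving out 1 library or that pair gave -0.057 to 0.24 for Bmp5, -0.0019 to 0.090 for Tgfb2, -0.056 to 0.0023 for Bmpr1a, -0.042 to 0.025 for Bmpr1b, -0.015 to 0.21 for Acvr2a, -0.052 to 0.76 for Tgfbr3, -0.071 to 0.41 for Smad9, -0.0075 to 0.045 for Smad4 and -0.16 to 0.081 for Ltbp1. Beyond the covariate fits, the cause of these turns was not tested.

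With the replicate number as a block, the genes called were 8285 (4115 higher, 4170 lower), with 7 members higher and 9 lower and 16 of the 21 calls kept. Same-numbered libraries did not deviate together from their group means (correlations of -0.28, 0.01, -0.07 and -0.46). This gave no sign that the numbers pair the animals, but 4 libraries a group cannot exclude it. Depth limits genes near 1 CPM: 3 counts equal 0.0458 to 0.114 CPM.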

Other observations

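Of the 86 further pathway genes, 22 did not pass the filter on low counts and were not tested. Gdf1, Bmp10 and Inhbe had 0 counts in all 8 libraries, which allows up to 0.0458 to 0.114 CPM by library, for counting error only. That limit does not hold for a gene whose reads were dropped because they overlap another gene. Whether such reads were dropped is not given. Sostdc1, an antagonist of BMP and Wnt ligands that was chosen after its values were seen, had 0.332, 0.399, 0.751 and 4.33 CPM in wild-type replicates 1 to 4 and 11.8, 1.53, 1.68 and 0.623 CPM in deleted replicates 1 to 4. It followed deleted replicate 1 and wild-type replicate 4, the libraries with the highest choroid plexus and hem sums, and did not pass (log2 fold change 1.44, adjusted p = 0.226).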
